A study of Mus musculus with 24 samples.

Results

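Red cell membrane skeleton genes were examined in bone marrow of mice that had stayed at the International Space Station (ISS) and of mice kept on the ground. The set was a fixed list of 9 gene symbols (Ank1, Sptb, Slc4a1, Epb41, Epb42, Dmtn, Add1, Add2 and Rhag), all of which were found among the 54752 genes of the deposited table and all of which passed the filter on low values. Bone marrow RNA of 24 male C57BL/6 mice was sequenced, 6 in each of 4 groups, with a library per mouse. Wild-type mice kept on the ground (GC-WT) and wild-type mice flown in space (FL-WT) were set beside mice lacking the transcription factor Nrf2 that were kept on the ground (GC-KO) or flown (FL-KO). The flown mice were 8 weeks old at their transport 3 weeks before launch, stayed at the ISS for 31 days, and were sampled 2 days after landing. The age of the ground mice is not stated in the sources used here. The ground mice were kept in the same kind of single cage in Japan, so the site of handling and the flight cannot be told apart. All cells came from the right pelvis and tibia and had been frozen before RNA was isolated.

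The membrane of the red cell is carried on its inner face by a meshwork of spectrin tetramers, in which beta spectrin is encoded by Sptb. Ankyrin (Ank1) ties beta spectrin to the anion exchanger band 3 (Slc4a1), with protein 4.2 (Epb42) and the Rh-associated glycoprotein (Rhag) in the same complex, and at the actin junctions protein 4.1 (Epb41), dematin (Dmtn) and the adducins (Add1 and Add2) hold spectrin to actin and to the membrane. The meshwork is assembled as erythroblasts mature in the marrow, and defects of several of these genes cause hereditary spherocytosis or elliptocytosis.

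Promoters are shown for 4 of the genes, since Sptb kept the lowest and Epb42 and Rhag the highest share of their GC-WT level in FL-KO mice, and Add1 also fell between the genotypes in flight. Each window of 300 bases spans the start of the gene in RefSeq on GRCm38.p6, 5′ to 3′ on the strand of the gene. Capitals mark matches on either strand to the GATA motif (the letters GATA between an A or T and an A or G) and to a CACCC-type motif (CCNCNCCC), whose matches can overlap each other. The windows lie at chr12:76710498-76710797 (Sptb, minus strand), chr5:34573414-34573713 (Add1, plus strand), chr2:121036828-121037127 (Epb42, minus strand) and chr17:40810899-40811198 (Rhag, plus strand).
Sptb: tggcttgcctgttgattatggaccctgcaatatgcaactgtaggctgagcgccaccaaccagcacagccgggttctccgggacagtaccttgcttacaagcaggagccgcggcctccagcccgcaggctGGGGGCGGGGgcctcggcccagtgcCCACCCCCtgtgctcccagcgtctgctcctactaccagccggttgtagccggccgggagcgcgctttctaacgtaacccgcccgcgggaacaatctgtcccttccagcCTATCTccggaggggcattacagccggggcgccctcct
Add1: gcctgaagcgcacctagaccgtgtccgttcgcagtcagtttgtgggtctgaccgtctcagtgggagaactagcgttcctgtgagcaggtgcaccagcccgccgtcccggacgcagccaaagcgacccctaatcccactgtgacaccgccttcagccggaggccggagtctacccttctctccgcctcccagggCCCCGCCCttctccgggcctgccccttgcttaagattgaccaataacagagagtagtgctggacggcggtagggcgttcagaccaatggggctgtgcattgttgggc
Epb42: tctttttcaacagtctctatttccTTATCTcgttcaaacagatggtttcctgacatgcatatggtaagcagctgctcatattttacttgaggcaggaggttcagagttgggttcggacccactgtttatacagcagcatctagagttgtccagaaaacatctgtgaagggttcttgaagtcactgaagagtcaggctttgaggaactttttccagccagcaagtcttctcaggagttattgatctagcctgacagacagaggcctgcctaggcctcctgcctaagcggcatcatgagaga
Rhag: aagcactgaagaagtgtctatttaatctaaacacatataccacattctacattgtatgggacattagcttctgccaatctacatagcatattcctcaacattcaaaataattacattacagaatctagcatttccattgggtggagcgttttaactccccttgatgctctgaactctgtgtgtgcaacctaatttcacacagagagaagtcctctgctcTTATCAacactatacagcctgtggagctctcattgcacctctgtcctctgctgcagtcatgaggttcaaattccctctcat
The table of promoters held 8 windows for 6 of the 9 genes (Sptb, Epb42, Add1, Add2 and Rhag with 1 each and Epb41 with 3), and none was used for Ank1, Slc4a1 and Dmtn. A GATA motif was found in 6 of the 8 windows and in 29.8% of the 32851 windows of all genes. The match in the Rhag window starts at position -31 from the gene start, that in the Epb42 window at -226, and that in the Sptb window at 12. The CACCC-type motif was in 5 of the 8 windows and in 49.5% of all windows. The Add1 window had no GATA match, and was 1 of 3 windows that held the core of the antioxidant response element bound by Nrf2 (TGACNNNGC), which 12.4% of all windows held. The other 2 with this core belong to Epb41. These matches describe letters in the window and no binding was measured.

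The values are in TPM, a measure of transcript abundance, summed over the isoforms of a gene and scaled by the authors for transcript length and for the total of each library. Read counts were not used here, so the depth behind each value is unknown. The gene of Nrf2, Nfe2l2, ran from 11.4 to 27.3 TPM in wild-type mice and from 2.22 to 7.18 TPM in Nrf2-KO mice, so that all 12 Nrf2-KO mice lay below all 12 wild-type mice. The test, by limma on log2(TPM + 1), was run on the 12373 genes that exceeded a TPM of 1 somewhere among the libraries. Differentially expressed genes (DEGs) are those that differed by 2-fold or more on that scale with a p, adjusted by the Benjamini-Hochberg method over all tested genes, under 0.1. Most tested genes had lower TPM after flight and likewise without Nrf2, with a median log2 fold change over all tested genes of -0.24 and -0.29 for flight in wild-type (FL-WT vs. GC-WT) and Nrf2-KO mice (FL-KO vs. GC-KO). For the genotype it was -0.22 on the ground (GC-KO vs. GC-WT) and -0.25 after flight (FL-KO vs. FL-WT). The number of genes above 1 TPM fell along the same order, from 10320 to 11410 per library in GC-WT mice to 8748 to 9996 in FL-KO mice, and the part of this shift in the results was not tested. Defining genes of neutrophils, B cells, macrophages, megakaryocytes, and T and NK cells were above 0 in every library, beside those of erythroid cells.

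After spaceflight, all 9 membrane skeleton genes were lower in both genotypes. In FL-WT vs. GC-WT, 7 of the 9 were DEGs, against 0.938% of all tested genes that were DEGs and lower, and the exceptions, Epb41 and Add1, fell by less than 2-fold. Between FL-KO and GC-KO mice 8 of the 9 were DEGs, against 2.13% of all genes, with Epb41 just short of 2-fold. At an adjusted p under 0.1 and any fold, the 9 genes passed in both, when 39.0% and 53.1% of all genes also passed as lower. The median log2 fold change of the 9 was -1.15 in wild-type and -1.34 in Nrf2-KO mice. In bulk marrow, fewer erythroid cells and less of these RNAs per erythroid cell cannot be told apart.

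**Figure D1:**
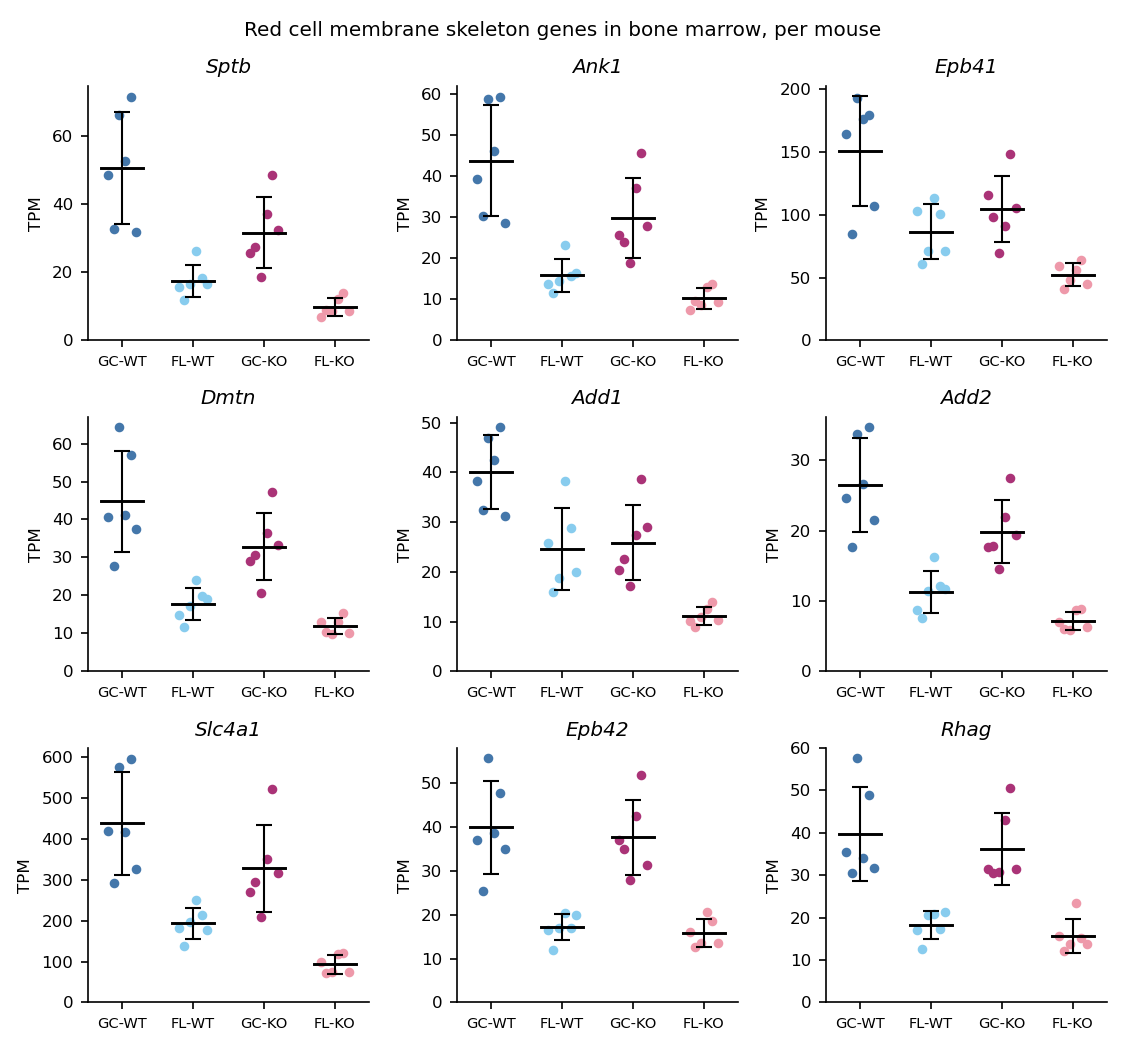
TPM of the 9 genes in each mouse (y axis, linear from 0) for the 4 groups (x axis). Points are mice, the horizontal line is the mean and the bar 1 SD (n = 6). In each panel the FL-KO mice lie below all GC-KO mice, whereas for Epb41 and Add1 the FL-WT mice overlap with the GC-WT mice.

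Spectrin and ankyrin, the long elements of the meshwork and their anchor, had the largest falls in wild-type mice. Sptb, beta spectrin (ENSMUSG00000021061.15, chromosome 12 of GRCm38, 76580488 to 76710547, minus strand), ran from 31.6 to 71.3 TPM in GC-WT mice with a median of 50.6, and from 11.9 to 26.1 TPM with a median of 16.6 in FL-WT mice. In Nrf2-KO mice it ran from 18.7 to 48.5 TPM (median 29.8) on the ground and from 6.77 to 13.9 TPM (median 8.78) after flight. The highest flown mouse was below the lowest ground mouse in both genotypes. The log2 fold change of Sptb was -1.45 ± 0.216 (SE) in wild-type mice, and its adjusted p from limma was 6.43e-05. In Nrf2-KO mice it was -1.56 ± 0.216 (SE), with an adjusted p of 2.19e-05. Only 9 of the 12373 genes had a lower log2 fold change than Sptb in FL-WT vs. GC-WT, which put it at the 10th place from the lowest.

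Ank1, ankyrin (ENSMUSG00000031543.18, chromosome 8, 22974844 to 23150497, plus strand), ran from 28.7 to 59.3 TPM (median 42.6) in GC-WT mice and from 11.6 to 23.1 TPM (median 15.0) in FL-WT mice. In GC-KO mice it ran from 18.8 to 45.5 TPM (median 26.7), and in FL-KO mice from 7.32 to 13.8 TPM (median 9.45). Ground and flown mice did not overlap in either genotype. Its log2 fold changes, -1.39 ± 0.204 (SE, adjusted p from limma 5.98e-05) and -1.42 ± 0.204 (SE, adjusted p 2.68e-05), stood beside those of Sptb. A pseudogene inside Ank1 on the same strand, Gm15815, was listed at 0.47 to 10.7 TPM, and the gene Plekhg3, whose annotated end meets that of Sptb on the other strand, at 1.13 to 9.87 TPM.

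Of the genes of the actin junction, Dmtn and Add2 had the larger falls in wild-type mice, and Epb41 and Add1 the smaller ones. In Nrf2-KO mice Add1 was a DEG as well, at -1.11. The 95% intervals of these genes overlapped in each genotype, and the difference between them was not tested. Dmtn, dematin, an actin-bundling protein (ENSMUSG00000022099.17, chromosome 14, 70601263 to 70636048, minus strand), ran from 27.8 to 64.3 TPM (median 40.9) in GC-WT mice and from 11.6 to 23.9 TPM (median 18.1) in FL-WT mice. The Nrf2-KO mice were at 20.6 to 47.1 TPM (median 31.96) on the ground and at 9.94 to 15.2 TPM (median 11.7) after flight. The groups were separate in both genotypes, with log2 fold changes of -1.27 ± 0.189 (SE, adjusted p from limma 6.43e-05) and -1.36 ± 0.189 (SE, adjusted p 2.19e-05). Add2, the beta adducin of erythroid and neural cells (ENSMUSG00000030000.10, chromosome 6, 86028681 to 86124409, plus strand), had the lowest mean of the 9 genes in every group. GC-WT mice held 17.6 to 34.7 TPM (median 25.6) and FL-WT mice 7.62 to 16.2 (median 11.5). GC-KO mice held 14.5 to 27.4 TPM (median 18.6) and FL-KO mice 5.88 to 8.86 (median 6.66). Again no flown mouse reached a ground mouse of its genotype. The log2 fold changes of Add2 were -1.16 ± 0.171 (SE, adjusted p from limma 6.37e-05) in wild-type and -1.34 ± 0.171 (SE, adjusted p 1.45e-05) in Nrf2-KO mice.

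Epb41, protein 4.1, which strengthens the contact of spectrin with actin (ENSMUSG00000028906.16, chromosome 4, 131923413 to 132075321, minus strand), ran from 84.8 to 192.7 TPM (median 169.9) in GC-WT mice and from 60.8 to 113.4 TPM (median 85.8) in FL-WT mice. In GC-KO mice it ran from 69.2 to 147.8 TPM (median 101.9) and in FL-KO mice from 40.5 to 63.9 TPM (median 52.2). The wild-type groups overlapped and the Nrf2-KO groups did not. The log2 fold change of Epb41 was -0.77 ± 0.198 (SE, adjusted p from limma 0.00663) in wild-type and -0.97 ± 0.198 (SE, adjusted p 0.00071) in Nrf2-KO mice, and it became a DEG in Nrf2-KO mice when mouse 04 or 09 of GC-KO or mouse 01 or 11 of FL-KO was left out (-1.004 to -1.08). Epb41 is transcribed from several promoters, and the values sum its isoforms. Add1, the alpha adducin, which is made in many cell types (ENSMUSG00000029106.14, chromosome 5, 34573664 to 34632308, plus strand), ran from 31.1 to 49.1 TPM (median 40.4) in GC-WT and from 16.1 to 38.2 TPM (median 22.9) in FL-WT mice. Ground Nrf2-KO mice had 17.2 to 38.6 TPM (median 24.98) and flown ones 8.87 to 14.0 TPM (median 10.6). As for Epb41, flown and ground mice overlapped in the wild type alone. Its log2 fold change was -0.72 ± 0.184 (SE, adjusted p from limma 0.00639) in wild-type mice. The value in Nrf2-KO mice was -1.11 ± 0.184 (SE, adjusted p 9.18e-05), and -0.99 without mouse 11 of GC-KO, which was then under 2-fold.

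Slc4a1, band 3, the anion exchanger and main membrane anchor of the skeleton (ENSMUSG00000006574.15, chromosome 11, 102348824 to 102366203, minus strand), was by far the most abundant of the set. It ran from 293.4 to 596.4 TPM (median 418) in GC-WT mice and from 137.6 to 251.6 TPM (median 189.7) in FL-WT mice. In Nrf2-KO mice it ran from 209.8 to 522.4 TPM (median 306.6) on the ground and from 73.0 to 121.4 TPM (median 86.6) after flight. No flown mouse reached a ground mouse of its genotype. The log2 fold change of Slc4a1 was -1.15 ± 0.199 (SE, adjusted p from limma 0.000274) in wild-type mice and -1.78 ± 0.199 (SE, adjusted p 8.31e-06) in Nrf2-KO mice, the lowest value of the 9 genes there.

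Epb42, protein 4.2, which binds band 3 and ankyrin (ENSMUSG00000023216.13, chromosome 2, 121017891 to 121037072, minus strand), ran from 25.4 to 55.8 TPM (median 37.8) in GC-WT and from 12.1 to 20.3 TPM (median 17.0) in FL-WT mice. Nrf2-KO mice had 27.8 to 51.9 TPM (median 35.9) on the ground and 12.6 to 20.5 TPM (median 14.8) after flight. Flown mice lay below ground mice, and the 2 genotypes had nearly the same ranges. The log2 fold changes of Epb42 were -1.15 ± 0.168 (SE, adjusted p from limma 5.96e-05) and -1.19 ± 0.168 (SE, adjusted p 2.41e-05). Rhag, which carries the Rh proteins to the membrane (ENSMUSG00000023926.8, chromosome 17, 40811126 to 40840754, plus strand), ran from 30.4 to 57.7 TPM (median 34.8) in GC-WT and from 12.6 to 21.3 TPM (median 19.0) in FL-WT mice. It ran from 30.5 to 50.6 TPM (median 31.4) in GC-KO and from 12.03 to 23.4 TPM (median 14.6) in FL-KO mice. The flown mice were again separate from the ground mice. The log2 fold changes of Rhag were -1.06 ± 0.171 (SE, adjusted p from limma 0.000135) and -1.16 ± 0.171 (SE, adjusted p 3.37e-05), and it was under 2-fold in wild-type mice without mouse 06 or 08 of GC-WT or mouse 05 of FL-WT (-0.94 to -0.99).

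Counted by separate groups, 7 of the 9 genes had all 6 FL-WT mice below all 6 GC-WT mice, as did 4.19% of all tested genes, and 9 of the 9 had all 6 FL-KO mice below all 6 GC-KO mice, as did 18.4% of all genes. For each gene with separate groups a two-sided exact permutation test on rank sums gave p = 0.00216, the smallest that 6 mice against 6 allow, or 0.0504 and 0.0117 after adjustment over all tested genes in the wild-type and Nrf2-KO comparison. Relative to the median of all genes, the log2 fold changes of the 9 lay between -0.48 (Add1) and -1.204 (Sptb) in wild-type mice and between -0.68 (Epb41) and -1.49 (Slc4a1) in Nrf2-KO mice.

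**Figure D2:**
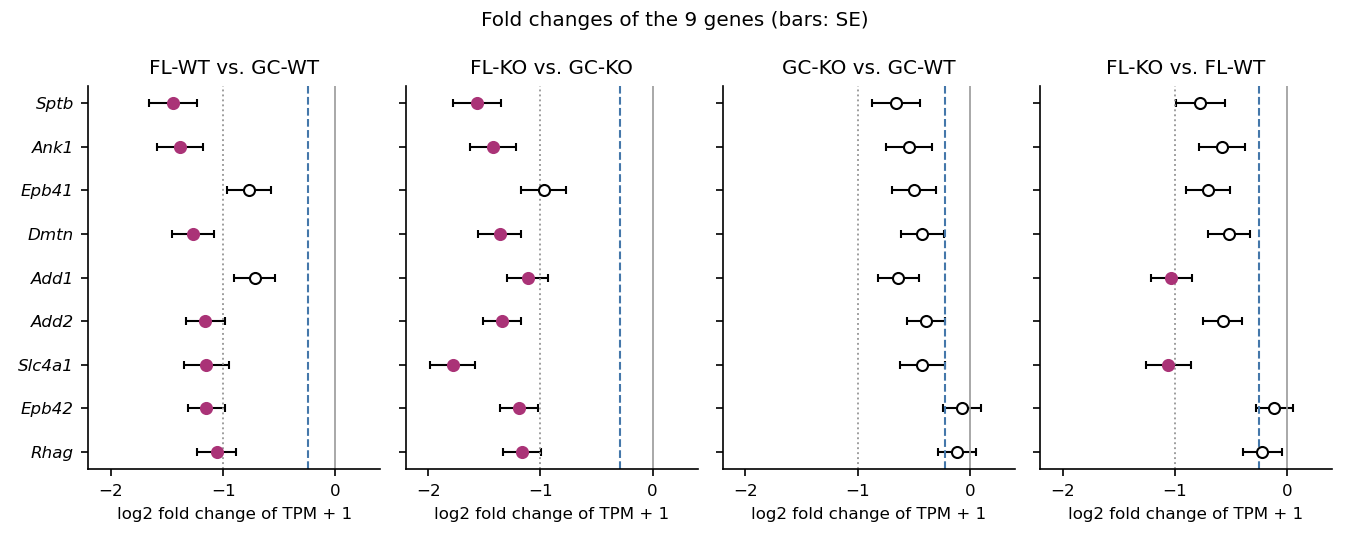
Log2 fold change of TPM + 1 (x axis) of the 9 genes (y axis) in 4 comparisons. Filled points are DEGs, bars are 1 SE, the dashed line is the median of all tested genes and the dotted line a fall of 2-fold. Points lie from -0.72 to -1.78 in the 2 flight comparisons and from -0.07 to -1.06 in the 2 genotype comparisons, where several turn positive under other scalings of the libraries.

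Between the genotypes not all of the 9 genes passed the same thresholds, and the difference between the genes was not tested. In GC-KO vs. GC-WT, 0 of the 9 genes were DEGs by limma, against 3.04% of all tested genes that were DEGs and lower. At an adjusted p under 0.1 and any fold 7 of the 9 were lower, against 42.9% of all genes, and the same 7 had an unadjusted p under 0.05. The count of lower genes was 5 in a fit of these 2 groups alone, 4 with a pseudocount of 0.1 or quantile normalization, and 2 without a filter. It was 1 with median-of-ratios scaling, where 2 passed and the other was higher. With trends in GC content and length removed it was 0, and when scaled to globins 9. The share of all genes was not computed for these settings. As deposited, the log2 fold changes of the 7 ran from -0.39 (Add2) to -0.66 (Sptb). The direction held for none of the 7 but Epb41 and Add1 once trends with GC content and length were removed. Epb42, at -0.07 with a 95% interval of -0.41 to 0.27 and an adjusted p of 0.775 from limma, and Rhag, at -0.12 with an interval of -0.47 to 0.24 and an adjusted p of 0.629, did not pass. For all 9 genes the GC-KO and GC-WT mice overlapped, while 9.15% of all genes had separate groups with lower values in GC-KO mice.

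In FL-KO vs. FL-WT, Slc4a1 and Add1 were DEGs, 2 of the 9, against 8.36% of all genes. Slc4a1 had -1.06 ± 0.199 (SE, adjusted p from limma 0.000106) on the log2 scale and Add1 -1.03 ± 0.184 (SE, adjusted p 5.69e-05), and in both all 6 FL-KO mice lay below all 6 FL-WT mice, as in 20.6% of all genes. Both calls sat near 2-fold. Without mouse 07 of FL-WT or mouse 02 of FL-KO neither gene was a DEG, without mouse 08 of FL-WT or mouse 04 of FL-KO 1 of them was, and with median-of-ratios scaling both were near -0.62 and neither was a DEG. At an adjusted p under 0.1 and any fold, 7 of the 9 genes were lower, against 47.2% of all genes. With median-of-ratios scaling, quantile normalization or GC and length trends removed, 4 passed in each, 3 of them lower and the other higher. The share of all genes was not computed for these settings. With the values as deposited, Epb42 (-0.11, 95% interval -0.46 to 0.23) and Rhag (-0.22, 95% interval -0.57 to 0.13) again did not pass. Their adjusted p from limma was 0.636 and 0.325. These 2 were also the genes whose direction turned in both genotype comparisons with median-of-ratios scaling, to 0.28 and 0.31 for Epb42 and to 0.23 and 0.20 for Rhag.

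Whether flight changed the genes by different amounts in the 2 genotypes was tested as an interaction. By limma 0 of the 9 genes passed at an adjusted p under 0.1, against 0.0162% of all genes, and 1 of the 9, Slc4a1, had an unadjusted p under 0.05, against 3.46% of all genes. The interaction of Slc4a1 was -0.63 on the log2 scale (95% interval -1.21 to -0.06, unadjusted p = 0.0328, adjusted p = 1 from limma). For Slc4a1 it was -0.21 with quantile normalization, -0.43 with globin scaling or without the 5 small RNAs, and -0.47 with GC and length trends removed. With median-of-ratios scaling the lowest interaction of the 9 genes was -0.55. As deposited, the interaction of Add1 was -0.39 (95% interval -0.93 to 0.14). For the other 7 it lay between -0.20 (Epb41) and -0.04 (Ank1), with intervals that reached from -0.78 to 0.55.

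Since 1 group of each pair is shared between these comparisons, the levels are also given against GC-WT mice. The means of Sptb were 34.7% (FL-WT), 62.5% (GC-KO) and 19.4% (FL-KO) of the GC-WT mean, and those of Slc4a1 44.2%, 74.8% and 21.3%. Epb42 was at 43.0%, 94.2% and 39.6%, and Rhag at 46.0%, 91.3% and 39.5%. Add1 was at 61.4%, 64.6% and 27.8%. The other 4 genes were at 23.5% (Ank1) to 34.6% (Epb41) in FL-KO mice. Summed over the 9 genes, wild-type mice had a mean of 874 ± 241 TPM (SD, n = 6) on the ground and 402 ± 83.4 after flight. Nrf2-KO mice had 646 ± 185 and 227 ± 45.4 TPM.

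By level, which TPM allows to be compared between genes, Slc4a1 came first and Epb41 second in all 4 groups, each above the next gene in every mouse and with no overlap of ranges. From the third place on, neighbouring genes overlapped in each group. In GC-WT mice the means of Sptb, Dmtn, Ank1, Add1, Epb42 and Rhag lay between 39.7 and 50.5 TPM. By mean, Sptb held the third place in GC-WT mice and the eighth in FL-KO mice, at 9.82 ± 2.61 TPM (SD, n = 6), while Epb42 went from the seventh place to the third, at 15.8 ± 3.18 TPM (SD, n = 6).

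Ratios of 2 genes within a library stay the same when all its values are multiplied by a common factor. Quantile normalization and the removal of GC and length trends can change them, and the ratios here use the values as deposited. Some spanned a narrow range. Over all 24 mice Rhag per Epb42 lay between 0.823 and 1.22 and Add2 per Dmtn between 0.524 and 0.704, with overlap between every pair of groups. Ank1 per Sptb lay between 0.807 and 1.09, but all FL-KO mice (0.998 or more) were above all GC-WT mice (0.927 or less). Other ratios differed more between groups. Epb41 per Sptb was 3.02 ± 0.404 (SD, n = 6) in GC-WT and 5.01 ± 0.905 in FL-WT mice, and in Nrf2-KO mice 3.43 ± 0.699 on the ground and 5.54 ± 1.61 after flight. Every flown mouse was above every ground mouse of its genotype in this ratio. Epb42 per Slc4a1 was 0.0918 ± 0.00942 (SD, n = 6) and 0.0894 ± 0.0119 in wild-type mice on the ground and after flight, against 0.118 ± 0.016 and 0.171 ± 0.0116 in Nrf2-KO mice. All FL-KO mice, at 0.153 or more, were above all other mice, which reached 0.136. These ratios were picked after their values were seen and were not tested.

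**Figure D3:**
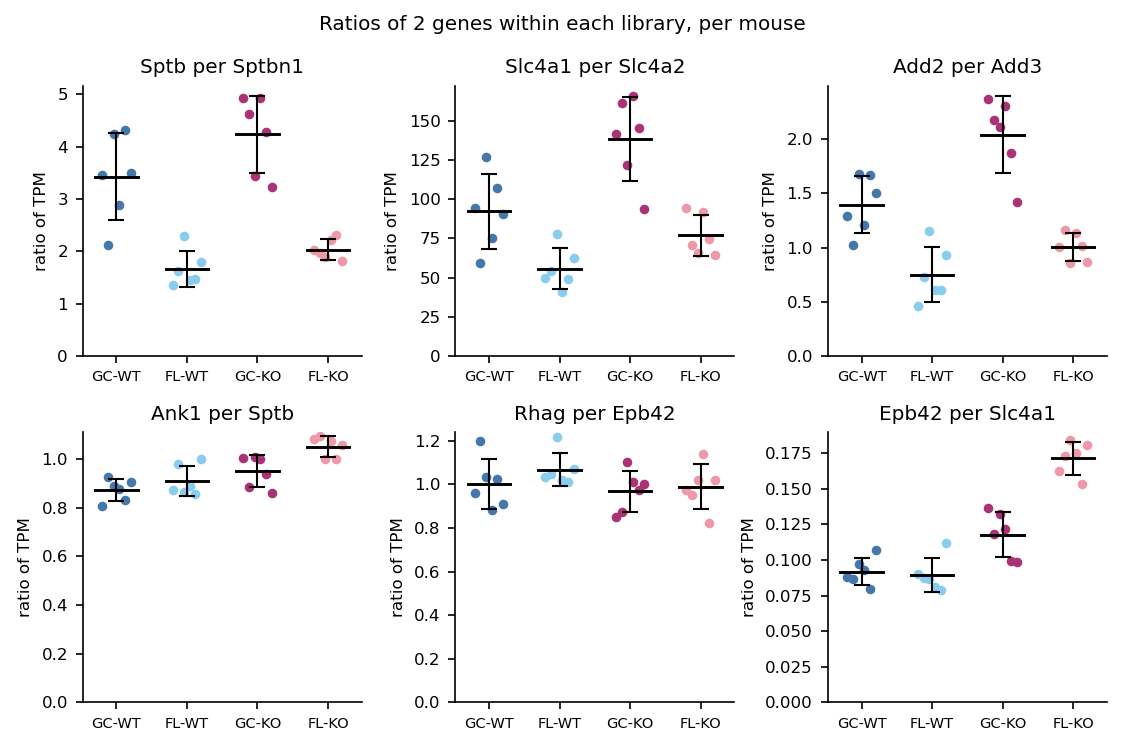
Ratio of the TPM of 2 genes in each mouse (y axis, linear from 0) for the 4 groups (x axis), with mean and SD (n = 6). Upper panels set an erythroid gene against its paralog, and lower panels set 2 members of the skeleton against each other. Ank1 per Sptb and Rhag per Epb42 lie between 0.807 and 1.22, with Ank1 per Sptb higher in FL-KO than in all GC-WT mice, and Epb42 per Slc4a1 is highest in FL-KO mice.

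Mouse by mouse, the 9 genes varied together. Pearson's r between 2 of them, on log2(TPM + 1), had a median of 0.94 over the 36 pairs and all 24 libraries (0.77 to 0.99), and a median of 0.84 with the group means subtracted (0.57 to 0.98). The 2 genes of a pair share their libraries, with the total and the mix of cells of each. Among the 5016 other genes whose mean reached 5 TPM, Fam234b (r = 0.99 with the mean of the 9 standardised genes), the glycine transporter Slc6a9 (0.99), the heme-regulated kinase Eif2ak1 (0.99), Ranbp10 (0.99) and Fhdc1 (0.99) had the highest r over all 24 libraries. With group means subtracted, Fam234b (0.97), Slc6a9 (0.97), Ranbp10 (0.97), Trak2 (0.96) and Fhdc1 (0.96) came first. For comparison, the globins Hbb-bs and Hba-a1 had an r of -0.20 and 0.26 over all 24 libraries, and of 0.39 and 0.63 with group means subtracted. With flight in wild-type mice the log2 fold changes of Fam234b, Slc6a9, Eif2ak1, Ranbp10, Fhdc1 and Trak2 were -0.97, -1.31, -0.93, -1.23, -1.18 and -1.09. Those in Nrf2-KO mice were -1.17, -1.45, -1.08, -1.28, -1.19 and -1.04 in the same order. All but Trak2 were picked by r over all 24 libraries, with the group differences included, so their falls follow from that choice.

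Most of the other listed proteins of the red cell membrane were also lower after flight. Of a list of 15, all tested, 5 were DEGs and lower after flight in wild-type mice (0.938% of all tested genes) and 7 in Nrf2-KO mice (2.13%), and 1 was in each of the 2 genotype comparisons (3.04% and 8.36%). At an adjusted p under 0.1 and any fold, 12 and 14 of the 15 were lower after flight, against 39.0% and 53.1% of all genes. Beta actin (Actb, -0.15), a tropomyosin (Tpm3, -0.20) and the glucose transporter Slc2a1 (-0.24) did not pass in wild-type mice, nor did Tpm3 in Nrf2-KO mice (-0.23). Over the list, the log2 fold changes had a median of -0.81 and -0.86 in the flight comparisons and -0.16 and -0.20 in the genotype comparisons.

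The DEGs of that list in both flight comparisons were glycophorin C (Gypc, -1.17 and -1.13), the actin filament cap tropomodulin (Tmod1, -1.16 and -1.10), the Rh protein Rhd (-1.16 and -1.35), the blood group protein Kel (-1.28 and -1.22) and the water channel Aqp1 (-1.20 and -1.33). Icam4 (-0.93 and -1.12) and Stom (-0.82 and -1.06) were DEGs in Nrf2-KO mice and passed at an adjusted p under 0.1 in wild-type mice. The DEG between genotypes was Actb, at -1.10 on the ground and -1.48 in flight, which every cell type makes and which was at -0.15 and -0.53 in the flight comparisons.

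The tested paralogs, which serve other cell types, had log2 fold changes below 0 after flight as well, and the difference between their values and those of the skeleton genes was not tested. Of 17 listed paralogs, 8 passed the filter on low values, and the other 9, among them Rhbg at 0 in every library, were too low to be tested. In the flight comparisons 0 of these 8 were DEGs by limma, while 5 and 6 had an unadjusted p under 0.05. At an adjusted p under 0.1 and any fold, 4 and 7 of the 8 were lower, against 39.0% and 53.1% of all genes. In the genotype comparisons 1 and 4 were lower DEGs, against 3.04% and 8.36% of all genes. Non-erythroid alpha spectrin Sptan1 was at -0.31 and -0.62 in the wild-type and Nrf2-KO flight comparisons and at -1.05 and -1.36 in the ground and flight genotype comparisons. Non-erythroid beta spectrin Sptbn1 was at -0.44 and -0.53, then -0.91 and -1.0005. The anion exchanger Slc4a2 was at -0.34 and -0.60, then -0.78 and -1.04, and gamma adducin Add3 at -0.27 and -0.40, then -0.89 and -1.02. The median of the 8 was -0.33 and -0.52, then -0.71 and -0.90.

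**Figure D4:**
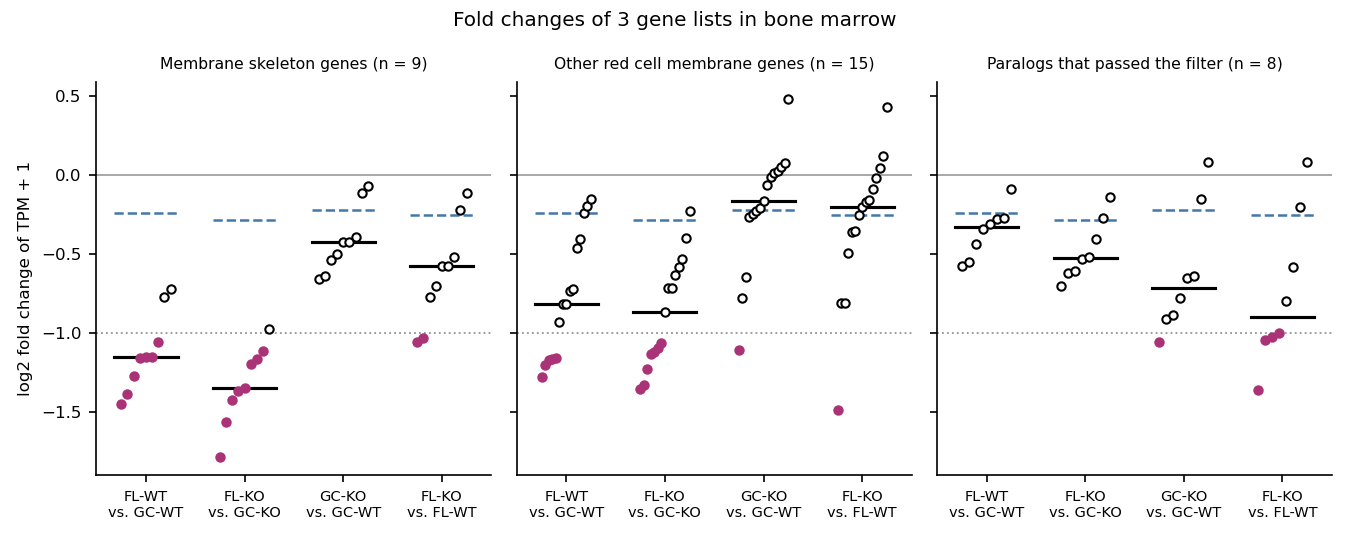
Log2 fold change of TPM + 1 (y axis) of each tested gene of 3 lists in the 4 comparisons (x axis). Filled points are DEGs, the solid line is the median of the list, the dashed line the median of all tested genes and the dotted line a fall of 2-fold. The medians of the skeleton genes are -1.15 and -1.34 in the flight comparisons, and those of the paralogs -0.33 and -0.52.

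Set directly against its paralog in each library, Sptb per Sptbn1 was 3.42 ± 0.833 (SD, n = 6) in GC-WT and 1.66 ± 0.346 in FL-WT mice, and in Nrf2-KO mice 4.23 ± 0.742 on the ground and 2.03 ± 0.193 after flight. All FL-KO mice were below all GC-KO mice, and the wild-type groups overlapped. Slc4a1 per Slc4a2 was 92.2 ± 23.6 and 55.7 ± 12.98 in ground and flown wild-type mice and 138 ± 26.9 and 77.0 ± 13.1 in ground and flown Nrf2-KO mice, with overlap in both genotypes. Add2 per Add3 was 1.396 ± 0.265, 0.75 ± 0.253, 2.04 ± 0.352 and 1.005 ± 0.13 in the same order. It was thus lower after flight in the mean of both genotypes, and higher without Nrf2 on the ground, but the ratios were not tested.

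Erythroid genes of other classes, and genes of other cells, are set beside these values without a test of their part in them. The 4 adult globins held 8.62% to 20.2% of TPM in GC-WT mice and 14.4% to 20.6% in FL-WT mice, while GC-KO mice had 16.5% to 24.3% and FL-KO mice 15.2% to 22.2%. By limma 0 of the 4 were DEGs in any of the 4 comparisons, and in the flight comparisons 0 and 0 had an unadjusted p under 0.05. In the genotype comparisons 2 and 1 had, all of them higher without Nrf2, and the median log2 fold changes were 0.39 and 0.19. With flight the log2 fold changes of Hba-a1, Hba-a2, Hbb-bs and Hbb-bt were 0.03, 0.08, 0.23 and 0.09 in wild-type mice. In Nrf2-KO mice they were -0.13, -0.11, -0.00016 and -0.15. Scaled to the summed globin TPM, the 9 skeleton genes had a median log2 fold change with flight of -1.27 in wild-type and -1.26 in Nrf2-KO mice. Since the globins changed little with flight, this scaling could not remove a fall of that size. Among 8 genes of heme synthesis 3 and 5 were lower DEGs in the wild-type and Nrf2-KO flight comparisons (medians -0.98 and -1.03) and 0 in the genotype comparisons by limma (medians 0.02 and -0.08), where 0 and 3 had an unadjusted p under 0.05. Of the 8 erythroid transcription factors 1 and 5 were lower DEGs after flight (medians -0.86 and -1.17), and 0 and 2 between genotypes by limma (medians -0.42 and -0.71, 6 and 7 at an unadjusted p under 0.05). Among all tested genes 0.938% and 2.13% were lower DEGs in the flight comparisons, and 3.04% and 8.36% in the genotype comparisons. At an adjusted p under 0.1 and any fold, 6 and 7 of the factors and 0 and 3 of the heme genes were lower between genotypes. The shares of all genes there were 42.9% and 47.2%.

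Of 12 neutrophil markers 0 and 2 were lower DEGs after flight by limma (medians 0.04 and -0.14). In wild-type mice 4 were higher at an adjusted p under 0.1 and in Nrf2-KO mice 3 were lower, and their summed level ran from 30650 to 55390 TPM in GC-WT and from 44430 to 61990 TPM in FL-WT mice, while in GC-KO and FL-KO mice it ran from 41580 to 64170 and from 49070 to 66060 TPM. Of 9 B cell markers 1 and 0 were lower DEGs by limma (medians -0.79 and -0.67, 8 and 8 at an unadjusted p under 0.05), with summed levels of 183.5 to 270.3 TPM in GC-WT mice and 95.4 to 234.1 TPM in FL-WT mice. GC-KO mice held 126.6 to 189.1 TPM and FL-KO mice 81.0 to 130.3 TPM. Of 8 megakaryocyte markers 0 and 2 were lower DEGs by limma (medians -0.73 and -0.89), and 6 and 8 had an unadjusted p under 0.05. Of 8 monocyte and macrophage markers 0 and 0 were (medians -0.20 and -0.39), with 1 and 4 at an unadjusted p under 0.05. Of 7 T and NK markers 0 and 0 were (medians 0.01 and -0.04), with 0 and 1. Between the genotypes the neutrophil markers had 3 lower DEGs on the ground and 5 after flight (medians -0.70 and -0.93), and the B cell markers 1 and 1 (medians -0.70 and -0.45). The megakaryocyte markers had 0 and 0 by limma (medians -0.26 and -0.46, 2 and 4 at an unadjusted p under 0.05), the monocyte and macrophage markers 1 and 2 (medians -0.20 and -0.43), and the T and NK markers 0 and 1 (medians -0.22 and -0.29, 1 and 4 at an unadjusted p under 0.05). For these lists and those above, the share of all genes at an unadjusted p under 0.05 is not given. At an adjusted p under 0.1 and any fold, 39.0% and 53.1% of all tested genes were lower in the flight comparisons. In the genotype comparisons 42.9% and 47.2% were. Lower DEGs made up 0.938% and 2.13% of all tested genes in the flight comparisons, and 3.04% and 8.36% in the genotype comparisons. The part of the shifts of the marker lists in the values of the skeleton genes was not tested.

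The scaling of the libraries set the size of the fall but not its direction. Median-of-ratios scaling moves the median of all genes to 0.0022 and -0.0094 in the flight comparisons. With it the 9 genes were lower by a median log2 fold change of -0.81 in wild-type and -0.95 in Nrf2-KO mice. By limma 9 of 9 passed at an adjusted p under 0.1, with 2 and 3 DEGs, against 35 and 30 DEGs in either direction among all tested genes. With the trends of each library with GC content and transcript length removed, the medians were -0.84 and -0.85. Again 9 of 9 passed at an adjusted p under 0.1, with 0 and 1 DEGs, against 32 and 21 among all tested genes. The share of all genes at an adjusted p under 0.1 and any fold was not computed for these 2 settings. The GC content of the longest transcript ran from 42.2% (Rhag) and 42.3% (Epb41) to 57.0% (Ank1 and Sptb). In the genotype comparisons the same correction gave medians of 0.15 and 0.07, above 0, so the lower values of most of the set in Nrf2-KO mice did not keep their direction.

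**Figure D5:**
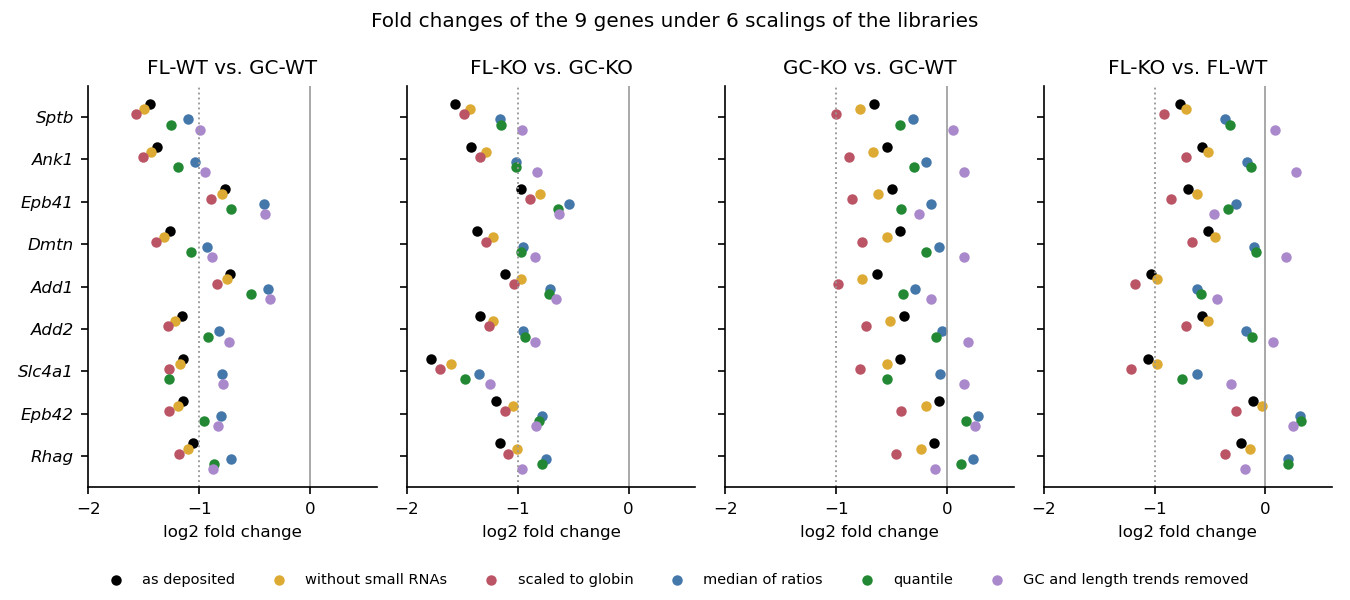
Log2 fold change (x axis) of the 9 genes (y axis) in the 4 comparisons with the values as deposited and under 5 other scalings of the libraries, by colour. The dotted line is a fall of 2-fold. All points are below 0 in the 2 flight comparisons, while points lie on both sides of 0 in the 2 genotype comparisons.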

How the data were processed

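Bone marrow RNA of 24 mice was measured by RNA-seq. The authors prepared directional libraries (MGIEasy) from frozen cells, sequenced them (DNBSEQ-G400), aligned to mm10 (STAR 2.6.1) and estimated TPM per gene (RSEM 1.3.1). The deposited table holds TPM whose columns sum to 999999.5 to 1000001.1, with no further scaling between libraries. The gene annotation they used is not given in the sources used here. Without read counts depth is unknown, no counting interval can be given, and no count model was used. Most of the TPM in a library sits in a few genes (5 small RNAs alone held 35.4% to 59.6%), so a change in these moves all others.

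Groups came from the sample labels. log2(TPM + 1) of the 12373 genes that exceeded a TPM of 1 in any library was fitted by group means over all 24 libraries without covariates (limma 3.58.1, R 4.3.3). The pseudocount makes fold changes of low genes smaller than their ratios of TPM. Nothing in the labels says that a mouse gave more than 1 library. Other steps used pandas 2.3.3 with numpy 2.4.6, and matplotlib 3.10.9 with scipy 1.17.1, in Python 3.11.15. Identifiers were matched to GENCODE M21 on GRCm38 (54723 of 54752), which gave coordinates, longest transcripts and GC content. Motifs were searched in the RefSeq promoter table. Steps were tested on simulated data.

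The 9 genes and all gene lists (other membrane proteins, paralogs, erythroid transcription factors, adult globins, heme biosynthesis, and markers of neutrophils, B cells, monocytes and macrophages, megakaryocytes, and T and NK cells) were chosen with earlier results of these data known, so counts over a list are descriptions. The text names the 9 genes, Nfe2l2 and each DEG among the other membrane proteins and paralogs, the globins, and the 5 genes most similar to the set by each measure. Genes overlapping a member, Hbb-bs and Hba-a1 among the r values, Tpm3, Slc2a1 and Rhbg were named after their values were seen. A gene of the list of other membrane proteins is not reported here. Ground and flight mice share numbers in the labels. Deviations of same-numbered mice from their group means had r from -0.03 to 0.27, not over 0.1 in every pair, so the mice were not treated as paired. Alternatives were leaving out each library, a replicate block, fitting only the 2 groups compared, a mean-expression trend, removal of GC and length trends (natural splines with 4 degrees of freedom), scaling by median of ratios, quantiles or globins, leaving out the small RNAs, a smaller pseudocount (0.1), other filters (none, or 6 libraries over a TPM of 1) and other thresholds (adjusted p 0.05, or any fold).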

Additional observations from a re-analysis of the deposited data

Results flagged for a closer look

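Of 36 sets of 6 mice (9 genes in 4 groups), 1 held a value that stood apart from the other 5 by Dixon's ratio, when chance gives about 1 in 20. Rhag in mouse 09 of FL-KO was at 23.4 TPM, against 12.03 to 15.6 TPM in the other FL-KO mice (ratio of the gap to the whole range 0.683, critical value 0.625). It was still below the lowest GC-KO mouse.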

How the results depend on the processing

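In the 2 flight comparisons all 234 fold changes of the 9 genes under 13 settings and all 432 with 1 library left out stayed below 0. In the genotype comparisons 19 of 216 values under 12 settings and 2 of 432 with 1 library left out turned positive. Settings that change only the filter, the fit or the threshold leave a fold change as it was. Leaving out a library of a group that is not compared does the same, so many of these values could not turn. The 19 all came with median-of-ratios scaling, quantile normalization or GC and length trends removed. The cause was not tested.

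Counts are given for flight in wild-type, then in Nrf2-KO mice, then for genotype on the ground, then after flight, against 124, 264, 392 and 1046 DEGs, with 2 in the interaction, and 7, 8, 0 and 2 of the 9 genes called. A pseudocount of 0.1 gave 510, 940, 983 and 2029 DEGs and 0 in the interaction. Median-of-ratios scaling gave 35, 30, 97 and 408 DEGs, with 2, 3, 0 and 0 of the 9. Quantile normalization gave 42, 32, 119 and 337 DEGs, 1 in the interaction, and 4, 3, 0 and 0 of the 9. Removing GC and length trends gave 32, 21, 59 and 165 DEGs, 5 in the interaction, and 0, 1, 0 and 0 of the 9. No minimum fold gave 4944, 6602, 5693 and 6080 genes and 9, 9, 7 and 7 of the 9. Globin scaling gave 234 and 1414 DEGs for flight in wild-type mice and for genotype on the ground, with 1 of the 9 called in the latter. Leaving out the 5 small RNAs gave 238 and 922 there and 0 of the 9 for genotype after flight. Both gave 0 DEGs in the interaction, as did no filter, and an adjusted p under 0.05 gave 1.

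Under GC and length correction the log2 fold changes in GC-KO vs. GC-WT became 0.15 (Ank1), 0.057 (Sptb), 0.16 (Slc4a1), 0.25 (Epb42), 0.15 (Dmtn) and 0.19 (Add2), and in FL-KO vs. FL-WT 0.28 (Ank1), 0.086 (Sptb), 0.25 (Epb42), 0.19 (Dmtn) and 0.072 (Add2). Epb42 and Rhag became 0.28 and 0.23 on the ground and 0.31 and 0.20 in flight with median-of-ratios scaling, and 0.17 and 0.12, then 0.32 and 0.21, with quantile normalization. Interactions turned positive with GC and length correction (Ank1 0.12, Dmtn 0.036, Sptb 0.029), median-of-ratios scaling (Ank1 0.024, Epb42 0.030), quantile normalization (Ank1 0.17, Dmtn 0.11, Epb41 0.072, Epb42 0.15, Rhag 0.084, Sptb 0.11), globin scaling (Add2 0.018, Ank1 0.17, Dmtn 0.11, Epb42 0.16, Rhag 0.096, Sptb 0.089) and without the small RNAs (Ank1 0.15, Dmtn 0.093, Epb42 0.15, Rhag 0.090, Sptb 0.062).

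With 1 library left out, 6 to 7, 7 to 9, 0 to 0 and 0 to 2 of the 9 genes were called, and 0 to 0 in the interaction. DEGs ranged from 87 to 202 (202 without mouse 07 of FL-WT), 173 to 380 (173 without mouse 11 of GC-KO), 265 to 621 (599 without mouse 10 of GC-WT, 621 and 600 without mouse 11 or 12 of GC-KO), 741 to 1262, and 0 to 5 in the interaction. Epb42 in GC-KO vs. GC-WT ranged from -0.19 to 0.032, and interactions of Ank1 from -0.15 to 0.093, of Sptb from -0.25 to 0.017, of Epb42 from -0.15 to 0.075 and of Dmtn from -0.22 to 0.028.

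With the mouse number as a replicate block, 128 and 265 DEGs, 7 and 8 of the 9 genes and 10 DEGs in the interaction were called. Of 12 mice, 3 correlated best with their own number. TPM without counts sets no limit that could be given for low genes.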
